A study of Mus musculus with 22 samples.

Results

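The 9 genes described here encode transcription factors that pattern the optic stalk, the optic cup and the forebrain: Pax2, Pax6, Vax1, Vax2, Six3, Lhx2, Lhx6, Otx2 and Zic1. They were chosen by gene symbol, with earlier results of these data known, and each was found among the 29367 genes of the count table. Their levels were compared across 22 RNA-seq libraries of mRNA bound to astrocyte ribosomes, taken from the optic nerve head (ONH) and from the optic nerve proper (ONP), the myelinated stretch behind it, in mice. The tissue was collected 7 days (4 libraries a region) or 30 days (7 libraries a region) after microbeads, which raise intraocular pressure, were injected into 1 eye. Mice of all 4 groups came from a cross of B6J.129(Cg)-Rpl22tm1.1Psam/SjJ with mice carrying the transgene Tg(GFAP-Cre)73.12Mvs on a B6.Cg background, were 3 to 4 months old and carried the genotype label WT. In this cross Cre, driven by a mouse GFAP promoter, adds an HA tag to the ribosomal protein Rpl22. Tagged ribosomes are therefore found wherever that promoter is or has been active. The study's methods describe breeding heterozygous offspring with each other, which gave mice homozygous for the tagged Rpl22 allele that also carried Cre. Each library pooled 4 mice, 2 male and 2 female, and ONH and ONP were taken from the same mice, although no source used here says that a library number marks the same mice in both regions. Those of 7 days could be assigned to a region and day but not to a numbered sample, and are named by the number in their column. Every animal was injected, and mice without an injection were not analysed here.

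The eye forms as a vesicle that bulges from the forebrain and folds into a cup, joined to the brain by a stalk that later becomes the optic nerve. Pax2, Vax1 and Vax2 act on the stalk and the ventral side of the cup, Pax6, Six3 and Lhx2 in the eye field and the retina, and Otx2 in the pigment epithelium and photoreceptors. Lhx6 directs the interneurons that arise in the ventral forebrain, and Zic1 marks dorsal neural tissue and the meninges. Pax2 is known to persist in glia of the adult optic nerve.

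The RefSeq promoters (GRCm38.p6) of 8 of these genes were examined as the 250 bases before each annotated start, 17 windows in all, since most of the genes tested were higher in the ONH at 30 days. The windows were searched on both strands for TAATTA, a core that many homeodomain proteins bind, and for TAATCC, the core bound by Otx proteins. TAATTA was in 4.84% and TAATCC in 6.25% of all 32851 windows of the same length. No window of Pax2, Pax6, Vax1, Six3, Lhx2, Lhx6 or Zic1 held either motif, whereas Otx2 had TAATTA in 2 of its 4 windows and TAATCC in 1. The Otx2 window with TAATCC, which also held TAATTA 3 times, lay wholly within annotated exons. Some Otx2 windows overlap in part, so they are not independent. The 3 windows below lie outside annotated exons and belong to Pax2 (chr19:44755502-44755751, + strand), to Lhx6 (chr2:36105409-36105658, - strand), the gene that changed most with time, and to Otx2 (chr14:48667645-48667894, - strand), the gene that varied most between libraries, with TAATTA in capitals.
Pax2: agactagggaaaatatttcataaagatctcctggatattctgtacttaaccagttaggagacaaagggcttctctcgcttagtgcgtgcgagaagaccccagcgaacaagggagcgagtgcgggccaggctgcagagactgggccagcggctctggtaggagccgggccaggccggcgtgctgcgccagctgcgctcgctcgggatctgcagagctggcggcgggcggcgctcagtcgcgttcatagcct
Lhx6: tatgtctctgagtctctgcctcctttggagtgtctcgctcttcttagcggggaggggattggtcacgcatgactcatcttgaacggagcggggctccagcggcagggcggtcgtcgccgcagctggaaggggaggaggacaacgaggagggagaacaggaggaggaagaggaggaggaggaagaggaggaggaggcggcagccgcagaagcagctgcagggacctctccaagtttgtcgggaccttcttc
Otx2: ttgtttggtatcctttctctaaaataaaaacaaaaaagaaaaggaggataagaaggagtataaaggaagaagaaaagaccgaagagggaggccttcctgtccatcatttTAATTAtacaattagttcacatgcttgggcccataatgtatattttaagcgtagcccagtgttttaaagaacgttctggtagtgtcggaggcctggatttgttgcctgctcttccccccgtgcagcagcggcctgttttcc
The Pax2 window held 20 CpG dinucleotides and the Lhx6 window 14, against 6 in the Otx2 window and a median of 6 over all windows. A match of letters is not a bound site, and no motif says nothing of the factor.

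The libraries held 16292489 to 33307092 counts, and levels are given as CPM, counts per 1000000 counts of the library after TMM scaling. The smallest amount taken as detected, 3 counts, was 0.0897 to 0.191 CPM and covers counting error only. The 10 astrocyte markers summed to between 14530 and 33559 CPM, and Gfap, Aqp4 and Slc1a3 were present in every library. Markers of other cells moved with region. The 12 photoreceptor markers summed to 173 to 6238 CPM in the ONH and 27.8 to 168 CPM in the ONP, and the 12 pigment cell markers to 148 to 3556 CPM and 12.8 to 71.6 CPM. The 10 oligodendrocyte markers went the other way, at 13315 to 40697 CPM in the ONH and 25175 to 105569 CPM in the ONP. In the ONH 3 libraries exceeded 1000 CPM of photoreceptor markers: number 4 at 30 days (2796 CPM) and numbers 5 and 6 at 7 days (1971 and 6238 CPM). Values without these 3 libraries are given where they change a call, and their part in the other differences was not tested. In bulk libraries, fewer cells of a type and less RNA per cell cannot be told apart.

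Levels between genes were compared per kilobase of exon, with all annotated exons of a gene merged. The merged lengths included 1242 bases for Vax2, 5693 for Zic1 and 11694 for Pax6, and the order depends on them. In CPM without this division, Pax6 in the ONH at 30 days (17.4 to 31.3 CPM) overlapped Zic1 (20.7 to 46.6 CPM) and lay above Vax2 (3.59 to 11.3 CPM). In the ONH at 30 days Vax2, Lhx2, Six3 and Zic1 were highest, at mean levels of 6.21, 5.85, 5.52 and 5.42 CPM per kilobase, and the ranges of each pair of neighbours overlapped. Pax6 followed at 1.97 CPM per kilobase, below every library of Zic1, then Otx2 (1.09), Vax1 (0.988) and Pax2 (0.562), whose ranges overlapped in turn. Lhx6 was lowest, at 0.154 CPM per kilobase, and its range lay below that of Pax2. In the ONP at 30 days the order was Lhx2 (4.26), Six3 (2.46), Zic1 (2.14), Pax6 (0.996), Vax2 (0.797), Vax1 (0.621), Pax2 (0.171), Lhx6 (0.0392) and Otx2 (0.0287 CPM per kilobase). Vax2 ranked 1 in the ONH and 5 in the ONP. Only Vax1 and Pax2 were neighbours without overlap in that order. At 7 days Six3 (6.88 CPM per kilobase) led in the ONH and Lhx2 (2.61 CPM per kilobase) in the ONP, and Lhx6 stood sixth in the ONP at 0.557 CPM per kilobase.

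**Figure D1:**
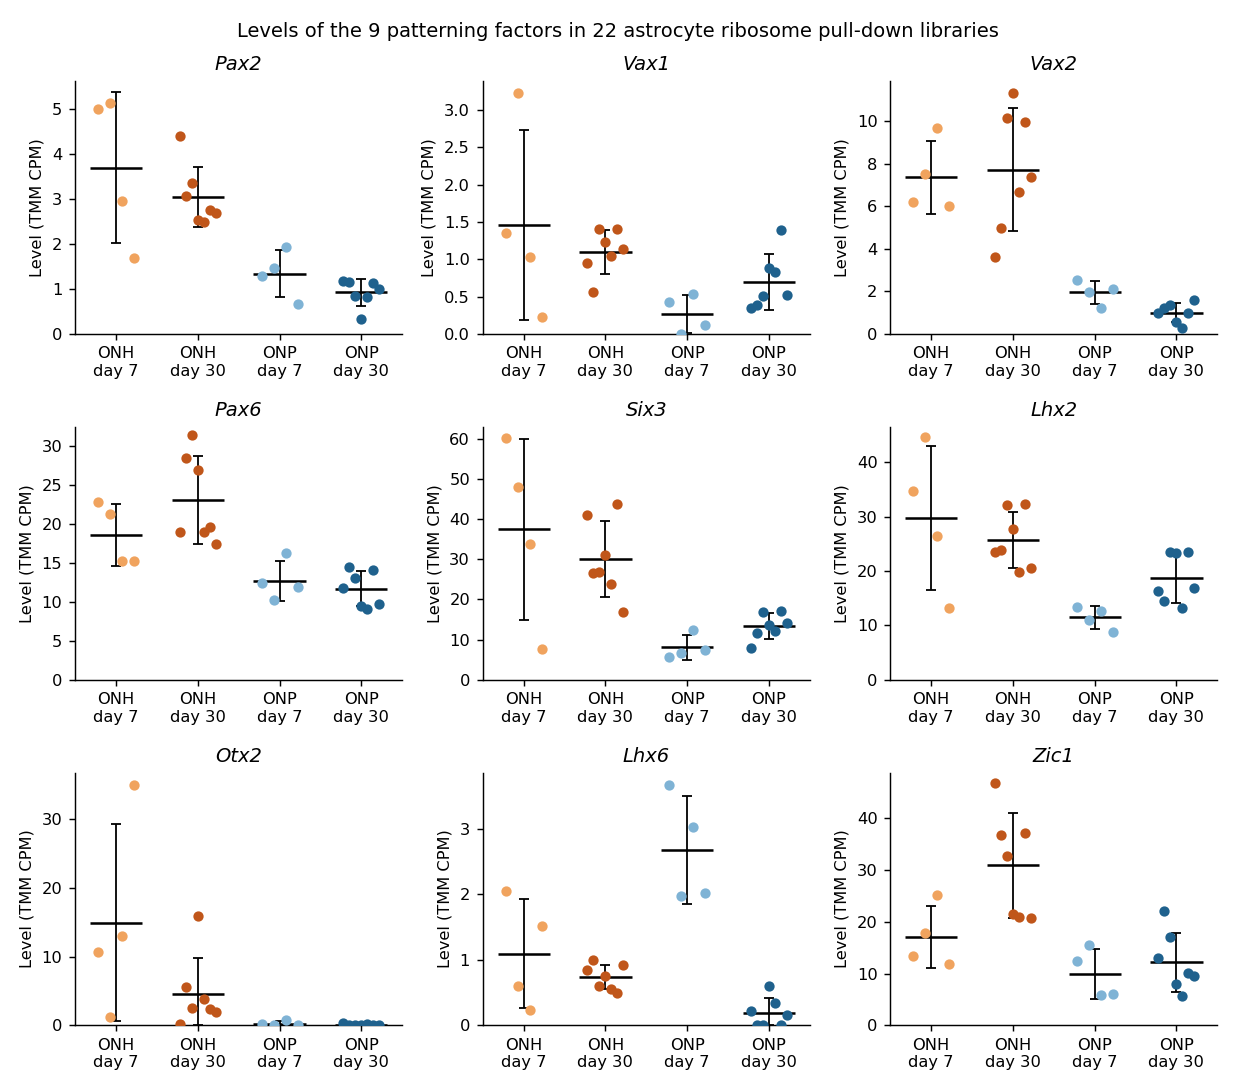
Level of each factor (y axis, TMM-scaled CPM) in each library of the 4 groups (x axis). Points are libraries, and the line and bars are the mean ± SD (n = 4 at 7 days, n = 7 at 30 days). Vax2 was between 3.59 and 11.3 CPM in the ONH and between 0.292 and 2.51 CPM in the ONP.

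Which of these factors differed between the ONH and ONP libraries was asked first at 30 days. Of the 8 genes with enough counts to test, 7 were higher in the ONH (adjusted p under 0.05, edgeR's quasi-likelihood test with Benjamini-Hochberg adjustment over 15133 genes) and none was lower. The background is large, since 41.8% of all genes tested were called in either direction and 21.8% were higher in the ONH. The median log2 fold change (log2FC, ONH over ONP) was 1.24 over the 8 genes and -0.01 over all genes. In 3 of the 8 (Pax2, Pax6 and Vax2) no ONH library overlapped an ONP library, against 16.4% of all genes.

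Among the optic stalk genes, Vax2 (ENSMUSG00000034777, chr6:83711264-83738313, GRCm38, + strand), a ventral homeodomain factor, differed most. At 30 days its level was 3.59 CPM in the lowest, 7.39 CPM in the median and 11.3 CPM in the highest ONH library, and 0.292, 0.983 and 1.60 CPM in the ONP. All 7 ONH libraries lay above all 7 ONP libraries. The difference was 7.72-fold (log2FC 2.95 ± 0.36 SE, adjusted p = 1.90e-05, edgeR). Pax2 (ENSMUSG00000004231, chr19:44756045-44837871, + strand), whose promoter is shown above, is a paired-box factor of the stalk and its glia. It was at 2.48, 2.76 and 4.4 CPM (lowest, median and highest) in the ONH and at 0.323, 0.999 and 1.18 CPM in the ONP. Here too the groups were separate, with a 3.26-fold difference (log2FC 1.70 ± 0.30 SE, adjusted p = 0.000323, edgeR). Vax1 (ENSMUSG00000006270, chr19:59166187-59170056, - strand), the close relative of Vax2 that acts at the ventral midline, had few counts, 8 to 31 a library. Its range was 0.561 to 1.41 CPM in the ONH and 0.350 to 1.4 CPM in the ONP, where 4 of 7 ONP libraries lay below every ONH library and the other 3 lay within the ONH range. Vax1 did not pass the test (log2FC 0.66 ± 0.36 SE, adjusted p = 0.151, edgeR), although without the highest ONP library, number 6, it did at log2FC 0.93 (adjusted p = 0.0495).

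The 3 eye field and retinal factors were all higher in the ONH at 30 days, with smaller folds than Vax2 and Pax2. All 10 markers of Mueller glia, some shared with astrocytes, also had a positive log2FC there (median 0.90). Of these 5 were called, where 41.8% of all genes were. The part of retinal RNA in the differences of the 3 factors was not tested. Pax6 (ENSMUSG00000027168, chr2:105668900-105697364, + strand), the paired-box factor at the head of eye development, was at 17.4, 19.5 and 31.3 CPM (lowest, median and highest) in the ONH and at 9.10, 11.8 and 14.4 CPM in the ONP. The groups did not overlap, and the difference was 1.98-fold (log2FC 0.98 ± 0.18 SE, adjusted p = 0.000436, edgeR). Six3 (ENSMUSG00000038805, chr17:85613608-85629302, + strand), a homeodomain factor of the anterior forebrain and eye field, was at 16.8, 26.8 and 43.8 CPM in the ONH and at 8.0, 13.7 and 17.0 CPM in the ONP. The lowest ONH library, number 7, fell within the ONP range, and the others lay above it. Its difference was 2.23-fold (log2FC 1.16 ± 0.20 SE, adjusted p = 0.000377, edgeR). Six3 shares 106 exon bases with the antisense gene Six3os1, which had a similar mean count of 587.1 a library against 485.2 for Six3, and the library kit does not mark strand, so reads from the shared stretch cannot be told apart.

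Lhx2 (ENSMUSG00000000247, chr2:38339281-38369733, + strand), a LIM homeodomain factor needed for the optic vesicle and kept in retinal glia, differed least. It was at 19.8, 23.9 and 32.3 CPM in the ONH and at 13.2, 16.8 and 23.5 CPM in the ONP. Libraries 3, 4 and 6 were the highest in each region, and the groups overlapped. The 1.37-fold difference passed the test narrowly (log2FC 0.45 ± 0.17 SE, adjusted p = 0.0387, edgeR), but not when any of 8 single libraries was left out (ONH 1, 3, 4 or 6 or ONP 1, 2, 5 or 7, adjusted p 0.0545 to 0.0977, edgeR), among them the photoreceptor-rich ONH library 4 (log2FC 0.43, adjusted p = 0.0661, edgeR). Lhx2 also missed the threshold with library size only (adjusted p = 0.0532), without the filter on low counts (0.0864) and in a single edgeR fit of all 4 groups (0.0977). It passed in DESeq2 (adjusted p = 0.0384). With library number as a block in edgeR it passed more clearly (log2FC 0.47 ± 0.11 SE, adjusted p = 0.00514).

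Of the forebrain and dorsal factors, Zic1 (ENSMUSG00000032368, chr9:91358058-91365810, - strand), a zinc finger factor, was at 20.7, 32.6 and 46.6 CPM in the ONH and at 5.60, 10.2 and 22.1 CPM in the ONP. A single ONP library, number 2, reached into the ONH range. The difference was 2.51-fold (log2FC 1.33 ± 0.28 SE, adjusted p = 0.00160, edgeR). The neighbouring Zic4 overlaps 60 exon bases of Zic1 on the opposite strand, and is on the list of meningeal fibroblast markers. Zic4 had a mean count of 1020 a library against 397.8 for Zic1, and reads from the shared stretch cannot be told apart. Those 12 markers summed to 524 to 1101 CPM in the ONH and 250 to 830 CPM in the ONP, and their part in the Zic1 difference was not tested.

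Lhx6 (ENSMUSG00000026890, chr2:36081953-36105408, - strand), a LIM homeodomain factor, was scarce at 30 days. It had 11 to 23 counts in each ONH library (0.498, 0.752 and 0.992 CPM as lowest, median and highest) and 0 to 13 counts in the ONP (0, 0.160 and 0.600 CPM). No count of Lhx6 was found in 3 of 7 ONP libraries, while library 4 of the ONP lay within the ONH range. The difference passed the test (log2FC 1.93 ± 0.68 SE, adjusted p = 0.0325, edgeR), but not without the filter on low counts (adjusted p = 0.0902, edgeR) or when any of 7 single libraries was left out (ONH 1, 2 or 7 or ONP 1, 3, 6 or 7, adjusted p 0.0510 to 0.0571, edgeR).

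Otx2 (ENSMUSG00000021848, chr14:48657677-48673819, - strand), the factor of pigment epithelium, photoreceptors and bipolar cells, fell below the filter on low counts at 30 days. Its level was 0.135, 2.46 and 15.8 CPM (lowest, median and highest) in the ONH and 0, 0.0799 and 0.394 CPM in the ONP, where 5 of 7 libraries had 3 counts or fewer. The lowest ONH library, number 1, lay within the ONP range and the other 6 lay above it. The means of 4.60 and 0.121 CPM differed by a two-sided exact permutation test over 3432 splits (p = 0.00175). Of the photoreceptor markers 11 of 11 tested and of the pigment cell markers 10 of 12 were higher in the ONH. Library 4 of the ONH, at 15.8 CPM, also had the highest photoreceptor (2796 CPM) and pigment cell (2016 CPM) sums of its group. The other libraries did not all follow this order. Library 2, next in Otx2 at 5.57 CPM, had the lowest photoreceptor sum (173 CPM) and the next highest pigment cell sum (769 CPM). Library 1, lowest in Otx2, had sums of 322 and 334 CPM. Without library 4 the difference in means was 2.61 CPM in place of 4.48 CPM, at the same p of 0.00175. In a single edgeR fit of all 4 groups, where Otx2 passed the filter, it was higher in the ONH (log2FC 5.15, adjusted p = 0.000401).

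**Figure D2:**
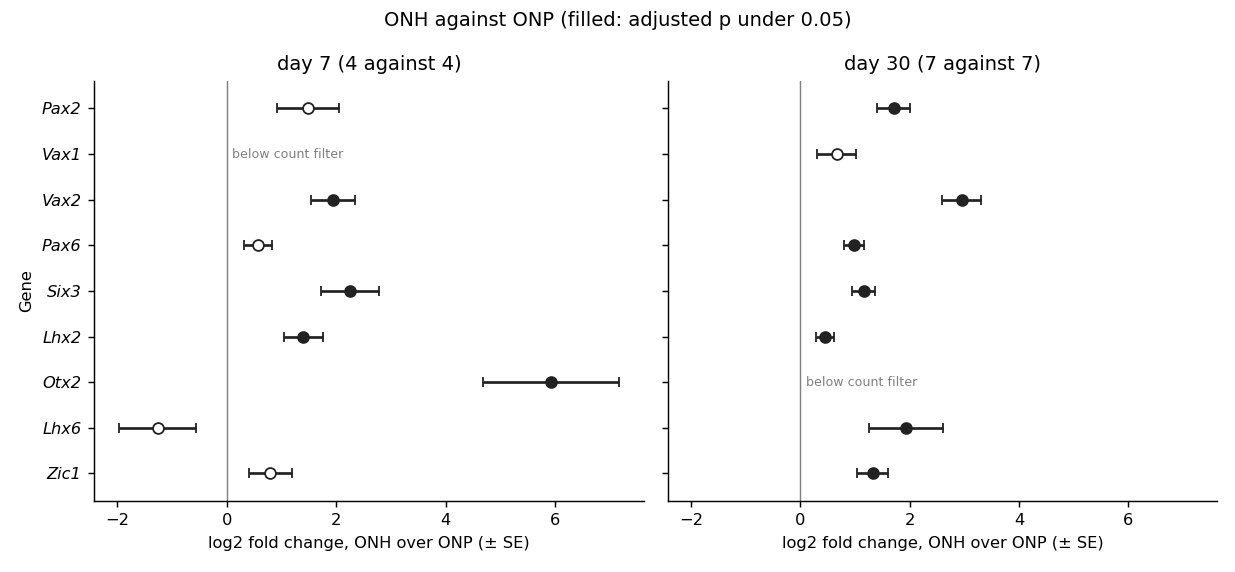
Log2 fold change of ONH over ONP (x axis, ± SE from edgeR) for each factor (y axis) at 7 and at 30 days; filled points have an adjusted p under 0.05. All tested factors lie right of 0 at 30 days, and Lhx6 alone lies left of it at 7 days.

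At 7 days the same question was asked with 4 libraries a region. Of the 8 genes tested, 4 were higher in the ONH (Vax2, Otx2, Six3 and Lhx2) and none was lower, where 13.2% of 14752 genes were called and 6.34% were higher in the ONH. Their median log2FC was 1.45, against 0.07 over all genes. Vax2 and Otx2 were the 2 genes whose groups did not overlap, a pattern found in 21.7% of all genes.

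Vax2 was at 6.20, 7.50, 9.69 and 6.0 CPM in ONH libraries 1, 3, 5 and 6 and at 2.51, 1.97, 1.19 and 2.10 CPM in ONP libraries 1, 2, 5 and 6. Every ONH library was above every ONP library, and the difference was 3.83-fold (log2FC 1.94 ± 0.40 SE, adjusted p = 0.0103, edgeR). Pax2 was at 5.01, 5.14, 2.96 and 1.68 CPM in the ONH and at 1.29, 1.46, 1.93 and 0.674 CPM in the ONP. ONH library 6, which had the most photoreceptor markers, fell below ONP library 5, and Pax2 did not pass the test (log2FC 1.49 ± 0.57 SE, adjusted p = 0.113, edgeR). It did pass in DESeq2 (adjusted p = 0.0353) and in a single edgeR fit of all 4 groups (adjusted p = 0.0188). Vax1 fell below the filter on low counts, at 1.35, 3.23, 1.03 and 0.224 CPM in the ONH and 0.429, 0, 0.533 and 0.112 CPM in the ONP. An exact permutation test over 70 splits, which can go no lower than p = 0.0286, gave p = 0.0857. Without ONH library 6 it gave the lowest p that 7 libraries allow, 0.0286. A single edgeR fit of all 4 groups tested Vax1 and called it higher in the ONH (log2FC 2.41 ± 0.80 SE, adjusted p = 0.0328), and DESeq2 did not (adjusted p = 0.0963).

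Six3 was at 60.3, 48.1, 33.8 and 7.68 CPM in ONH libraries 1, 3, 5 and 6 and at 5.70, 6.55, 12.5 and 7.34 CPM in the ONP. ONH library 6 again lay within the ONP range, and the 4.74-fold difference passed the test (log2FC 2.25 ± 0.53 SE, adjusted p = 0.0192, edgeR). Lhx2 was at 34.7, 44.7, 26.3 and 13.2 CPM, against 13.4, 11.0, 12.6 and 8.77 CPM in the ONP, and ONH library 6 was again within the ONP range. It was 2.64-fold higher (log2FC 1.4 ± 0.35 SE, adjusted p = 0.0243, edgeR). Both calls were fragile, since Six3 missed the threshold without ONH library 1 or ONP library 1, 2 or 6 (log2FC 1.90 to 2.20) and Lhx2 without ONH library 1 or 3 or any ONP library (log2FC 1.12 to 1.48). Without ONH libraries 5 and 6 the calls held, with a log2FC of 2.75 for Six3 (adjusted p = 0.000798) and of 1.79 for Lhx2 (adjusted p = 0.00170, edgeR). Pax6 (15.2 to 22.7 CPM in the ONH, 10.2 to 16.3 CPM in the ONP) and Zic1 (11.8 to 25.2 CPM and 5.91 to 15.6 CPM) overlapped and did not pass, at a log2FC of 0.57 (adjusted p = 0.172, edgeR) and 0.79 (adjusted p = 0.212, edgeR).

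Otx2 was at 10.7, 1.23, 12.9 and 35 CPM in ONH libraries 1, 3, 5 and 6 and at 0.184, 0, 0.739 and 0 CPM in the ONP. The groups did not overlap, although the ONH libraries spanned a wide range. Its log2FC of 5.93 ± 1.24 SE (adjusted p = 0.0108, edgeR) is set by few ONP counts, as 3 of 4 ONP libraries had 3 or fewer. Photoreceptor sums in the same ONH libraries were 223, 248, 1971 and 6238 CPM and pigment cell sums 1457, 257, 1361 and 3556 CPM. Libraries 3 and 6 were thus the lowest and the highest in Otx2 and in pigment cell markers. Without libraries 5 and 6 the log2FC was 4.60 and no longer passed (adjusted p = 0.0617, edgeR). The part of retinal and pigment cell RNA in the Otx2 level was not tested.

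**Figure D3:**
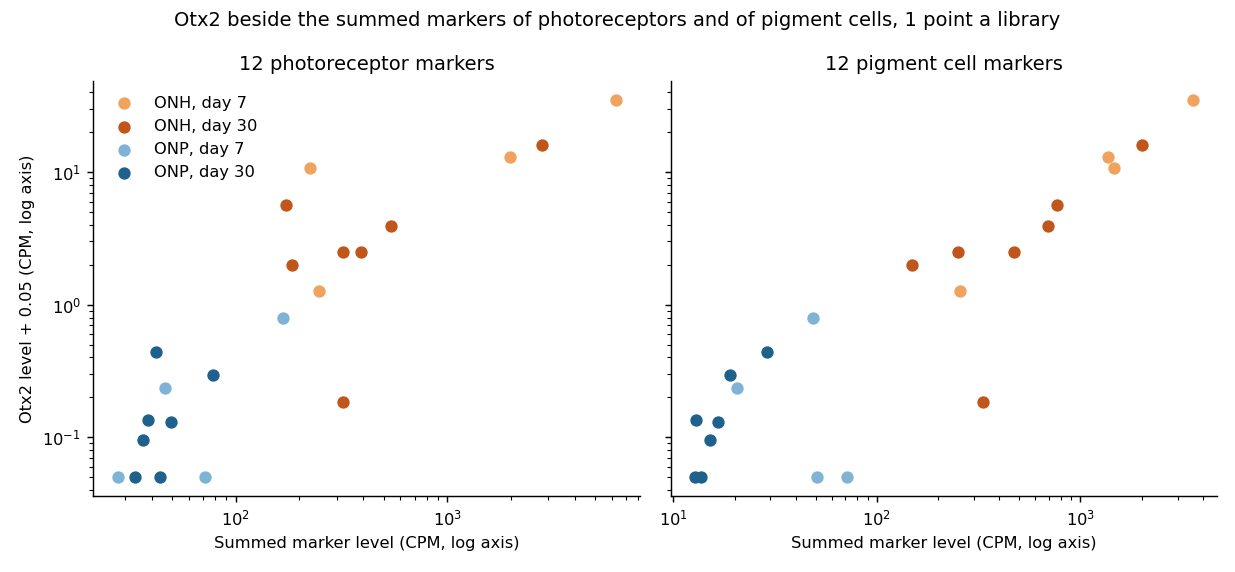
Otx2 level plus 0.05 (y axis, CPM, log axis) beside the summed level of 12 photoreceptor markers or 12 pigment cell markers (x axis, CPM, log axis) in each of 22 libraries. The library with the most Otx2, ONH number 6 at 7 days (35 CPM), has the highest sum of both lists, and ONH number 1 at 30 days (0.135 CPM) lies apart from the other ONH libraries.

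Lhx6 was the gene with a negative log2FC at 7 days. Its level was 2.05, 0.598, 0.228 and 1.51 CPM in ONH libraries 1, 3, 5 and 6 and 3.68, 1.97, 3.04 and 2.02 CPM in the ONP. ONH library 1 overlapped the ONP range, and the difference did not pass the test (log2FC -1.27 ± 0.70 SE, adjusted p = 0.262, edgeR).

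The change from 7 to 30 days was then compared within each region. In the ONH, none of the 9 genes passed the test, where 0% of 15668 genes were called by edgeR's quasi-likelihood test, 2179 genes had an unadjusted p under 0.05, and DESeq2 called 446. None of the 9 passed in DESeq2 either, and 1 of them, Zic1, had an unadjusted p under 0.05 in edgeR. Zic1 was at 11.8 to 25.2 CPM at 7 days and 20.7 to 46.6 CPM at 30 days (log2FC 0.83 ± 0.28 SE, adjusted p = 0.247, edgeR). None of the 9 had groups without overlap, against 2.28% of all genes. Vax2 was the closest to no difference, at means of 7.35 ± 1.70 (SD, n = 4) and 7.72 ± 2.88 CPM (SD, n = 7) and a log2FC of 0.05 ± 0.33 SE. Otx2 had the largest estimate, at a log2FC of -1.72 ± 0.86 SE (adjusted p = 0.389, edgeR), with means of 15 ± 14.3 CPM (SD, n = 4) and 4.60 ± 5.23 CPM (SD, n = 7). A p above the threshold does not show that the levels were alike.

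In the ONP, 2 of the 8 genes tested passed, Lhx6 and Lhx2, where 17% of 15491 genes did. Lhx6 fell from 3.68, 1.97, 3.04 and 2.02 CPM at 7 days to 0, 0.160 and 0.600 CPM (lowest, median and highest) at 30 days. Every 7 day library lay above every 30 day library, as in 12% of all genes. The counts fell from 31 to 74 a library to 0 to 13, and the fitted difference was 13.9-fold (log2FC -3.80 ± 0.82 SE, adjusted p = 0.00973, edgeR). This call held in all 16 alternatives, with a log2FC between -4.42 and -3.58. Other marker sums also differed between these groups. Endothelial and mural cell markers summed to 137 to 163 CPM at 7 days and 40.4 to 115 CPM at 30 days, and oligodendrocyte markers to 80570 to 105569 CPM and 25175 to 82429 CPM. The 12 GABAergic interneuron markers, a cell type that uses Lhx6, summed to 19.1 to 31.4 CPM at 7 days and 15.9 to 28.2 CPM at 30 days, and of 5 tested 2 were higher and 1 lower at 30 days. Of their defining markers in the ONP at 7 days, Gad1 was above 0 in all 4 libraries (mean 0.617 CPM). Its lowest value, 0.0613 CPM, lay below the smallest amount taken as detected. Gad2 was at 0 in 2 libraries and Slc32a1 at 0 in all 4. The part of oligodendrocyte, endothelial or interneuron RNA in the Lhx6 change was not tested.

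Lhx2 rose in the ONP from 8.77 to 13.4 CPM at 7 days to 13.2 to 23.5 CPM at 30 days, with overlap between 30 day library 5 and 7 day library 1. The 1.60-fold difference (log2FC 0.68 ± 0.20 SE, adjusted p = 0.0393, edgeR) missed the threshold when any of 7 single libraries was left out (30 day library 1, 3, 4 or 6 or 7 day library 2, 5 or 6, log2FC 0.59 to 0.73) and in a single fit of all 4 groups (adjusted p = 0.0925). Six3 was at 5.70 to 12.5 CPM at 7 days and 8.0 to 17.0 CPM at 30 days, at a log2FC of 0.71 ± 0.25 SE that did not pass in edgeR (adjusted p = 0.0731) but did in DESeq2 (adjusted p = 0.0271). The other genes tested did not pass. Vax2 had a log2FC of -1.0 ± 0.43 SE (adjusted p = 0.125, edgeR), Pax2 of -0.56 ± 0.41 SE, Pax6 of -0.15 ± 0.18 SE, Zic1 of 0.27 ± 0.38 SE and Vax1 of 1.31 ± 0.72 SE. Otx2 was at or near 0 in both ONP groups (means of 0.231 and 0.121 CPM, exact permutation test over 330 splits, p = 0.536).

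**Figure D4:**
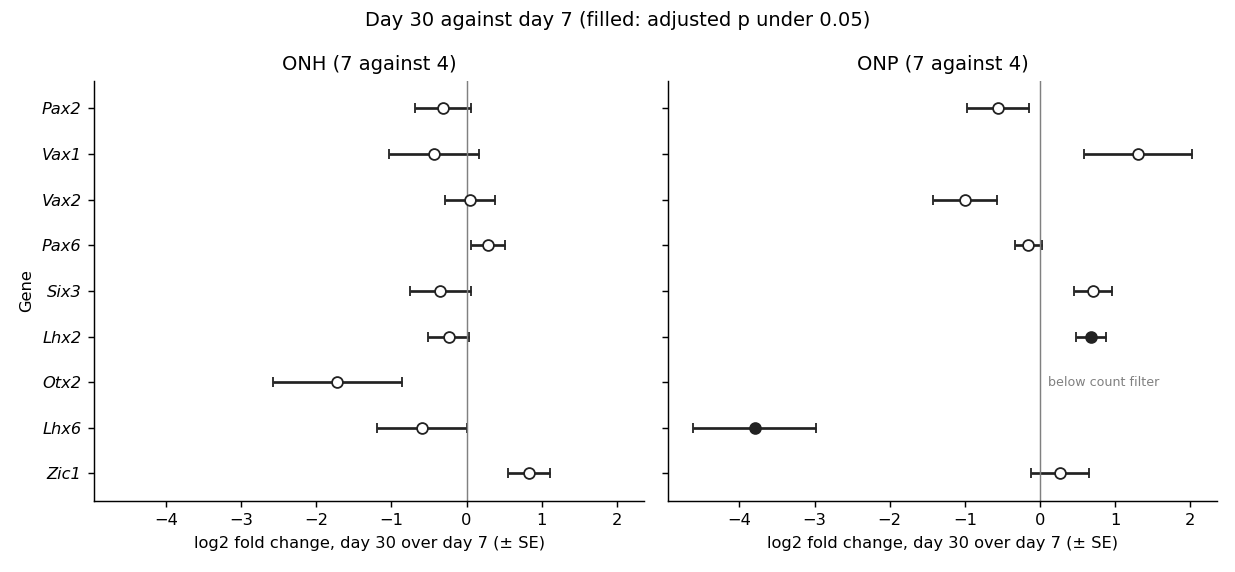
Log2 fold change of day 30 over day 7 (x axis, ± SE from edgeR) for each factor (y axis) in the ONH and in the ONP; filled points have an adjusted p under 0.05. Lhx6 at -3.80 and Lhx2 at 0.68 in the ONP are the filled points, and Otx2 had too few counts to test in the ONP.

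Whether the change with time differed between the regions was tested as an interaction over all 22 libraries. None of the 9 genes passed, where 0.543% of 16748 genes did (91 genes). Lhx6 had the largest estimate, a change 3.22 ± 1.12 SE lower on the log2 scale in the ONP than in the ONH (adjusted p = 0.212, edgeR), and it passed in DESeq2 (adjusted p = 0.0324). Of the 9 genes 2, Lhx6 and Lhx2, had an unadjusted p under 0.05. Lhx2 was at 0.92 ± 0.35 SE (adjusted p = 0.266, edgeR) and Six3 at 1.05 ± 0.51 SE (adjusted p = 0.400), both higher in the ONP. Without the 3 ONH libraries rich in photoreceptor markers, Lhx2 (1.38, adjusted p = 0.0285) and Six3 (1.62, adjusted p = 0.0386) passed, and Lhx6 did not (-2.94, adjusted p = 0.229, edgeR).

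Other genes of eye and forebrain patterning were compared as 5 lists, which share some genes and were also chosen with earlier results of these data known. At 30 days, 13 of 20 tested eye field and retinal factors were higher in the ONH and 1 was lower, with a median log2FC of 1.21. That is 70% called, against 41.8% of all genes. The lowest adjusted p-values were those of Otx1 (4.71-fold, 20.05 against 4.25 CPM), Nr2f2 (2.43-fold, 79.5 against 32.5 CPM) and Nr2f1 (3.06-fold, 68.5 against 22.2 CPM). Otx1 is a relative of Otx2, and Nr2f1 and Nr2f2 are nuclear receptors of early eye development. The gene that was lower was Vsx1, a bipolar cell factor, at 0.436 CPM in the ONH and 2.57 CPM in the ONP (log2FC -2.59 ± 0.96 SE, adjusted p = 0.0412, edgeR). At 7 days 10 of 17 were higher in the ONH and none was lower, with a median of 1.52, where 6.34% of all genes were higher. Vsx1, Mitf, Foxd1 and Sox9 are among those also on a marker list of another cell type, and photoreceptors use Crx.

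Of 12 tested paralogs of the 9 genes, 4 were higher in the ONH at 30 days (Otx1, Six6, Crx and Zic5) and 2 lower (Lmx1a and Pax8), with a median log2FC of 0.80. The 50% called is near the 41.8% of all genes. Six6, the closest relative of Six3 and a factor of the eye field, was at 61.0 and 23.4 CPM. Crx, the photoreceptor relative of Otx2, was at means of 4.4 and 0.128 CPM. Its ONP mean was at the level of 3 counts, 0.120 to 0.167 CPM in those libraries. Zic5 was 1.79-fold higher (22.8 against 12.6 CPM). Lmx1a, a LIM homeodomain factor like Lhx2 and Lhx6, was at 0.279 CPM in the ONH and 3.73 CPM in the ONP (log2FC -3.73 ± 0.55 SE, adjusted p = 9.18e-05, edgeR). Pax8, the close relative of Pax2, was at 2.99 and 7.55 CPM (log2FC -1.34 ± 0.43 SE, adjusted p = 0.0209, edgeR), opposite to Pax2.

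Among the signals and partners of stalk and cup patterning, 11 of 33 were higher in the ONH at 30 days and 4 were lower, with a median log2FC of -0.07. The 45.5% called is close to the 41.8% of all genes, so the count is not a result about this list. Ephb2, an ephrin receptor that is ventral in the retina, was 5.96-fold higher (19.2 against 3.22 CPM). Ptch1 (2.75-fold, 60.9 against 22 CPM) and Cdon (5.78-fold, 5.99 against 1.02 CPM) followed. Those lower in the ONH were Ldb2 (3.31-fold, 12.8 against 42.2 CPM), a LIM domain binding partner, Bmp4 (2.22-fold, 10.9 against 24.1 CPM), a dorsal signal of the eye, Dach2 and Boc. At 7 days 7 of 32 were higher and none lower, or 21.9% called against 13.2% of all genes.

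Factors of other regions of the brain were mostly too scarce to test. At 30 days 6 of 22 forebrain factors were tested, and Irx3 was higher in the ONH (3.63-fold) while Nkx2-2 (2.69-fold), Gsx1 (2.27-fold) and Bcl11b (3.95-fold) were lower, in all 4 of 6 genes against 41.8% of all genes. At 7 days 6 were tested and none passed. Of 17 midbrain, hindbrain and Hox factors 3 were tested at 30 days and 2 at 7 days, and none passed.

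**Figure D5:**
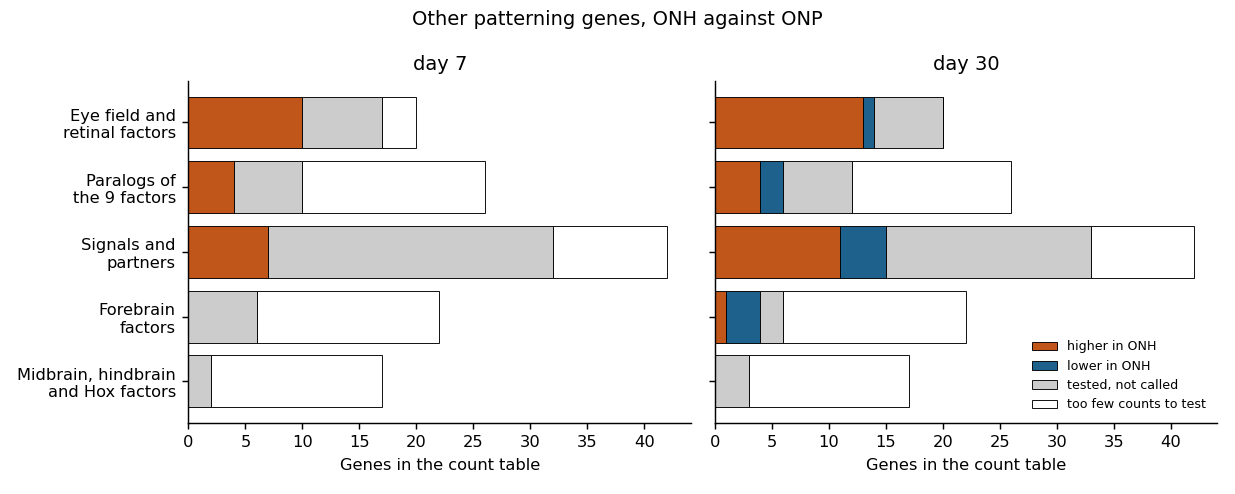
Genes of 5 lists (y axis) in the count table (x axis, number of genes) at 7 and at 30 days, divided into those higher in the ONH, lower in the ONH, tested but not called, and too scarce to test. The eye field and retinal factors hold 13 genes higher and 1 lower in the ONH at 30 days.

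With time, no gene of the 5 lists passed in the ONH. In the ONP the eye field list had 3 genes that rose (Nr2e1, Vsx1 and Sox2) and 1 that fell (Otx1) of 16 tested. The paralogs had 2 that rose (Pax8 and Lmx1a) and 1 that fell of 10, and the forebrain factors 1 that rose (Fezf1) and 1 that fell (Irx3) of 8. Signals and partners had 2 that rose (Ldb2 and Spry2) and 4 that fell (Tle3, Aldh1a3, Ptch1 and Dhh) of 33, and none of 4 midbrain, hindbrain and Hox factors passed. Called were 25%, 30%, 25% and 18.2% of these lists in turn, against 17% of all genes, so that the last is at the share of all genes. In the interaction Nr2e1 and Pax8 passed and no other gene of these lists did.

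For each of the 9 genes, the 3 genes most like it were taken by Pearson's r of log2 CPM over the 22 libraries, among 16752 genes. These values describe libraries that share region and day, and carry no test. After the mean of each group was removed, r over the 27 pairs ranged from 0.41 (Lhx6 with Dst) to 0.95 (Six3 with Clip4). Pax2 was most like Hbegf (r = 0.92), Ccnd2 and the ephrin receptor Ephb3, and Pax6 most like Tgfb2 (r = 0.90), Aif1l and Vegfa. Vax2 was most like Emp3 (r = 0.94), Klhl30 and Mylk, and Vax1 most like Ier5 (r = 0.87), Habp4 and Gm16701. Six3 was most like Clip4 (r = 0.96), Sox1 and Phactr2. Lhx2 was most like Rcn1 (r = 0.92), 2610035D17Rik and Rhoq, and Zic1 most like Maf (r = 0.95), Msi2 and Mesd. Lhx6 was most like Kit (r = 0.88), Dst and Lef1. Otx2 was most like Krt18 (r = 0.94), Slc17a7 and Tyr, an enzyme of pigment synthesis that is on the pigment cell list.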

How the data were processed

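RNA was taken from HA-tagged ribosomes of mouse astrocytes, pooled from 4 mice a library, and sequenced as 150 base paired reads after a polyA-primed, low-input preparation that does not mark strand. The authors aligned reads with STAR 2.6.1d, estimated counts per gene with Salmon 0.14.2 (mm10, Ensembl 94) and deposited a table of expected counts as whole numbers, which is used here. Their variance-stabilised table was not used. The study compared groups with DESeq2 1.34.0.

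Groups follow the sample labels. Columns at 7 days could be matched to a region and day but not to a numbered sample. The 9 genes, the 5 gene lists and the 13 marker lists were chosen with earlier results of these data known. Each pair of groups was fitted alone with edgeR 4.0.16 in R 4.3.3 (filterByExpr, TMM, quasi-likelihood test, Benjamini-Hochberg adjustment over all genes tested, threshold 0.05), and the interaction was fitted over all groups. The code was tested on simulated data. Genes below the filter got an exact permutation test of mean CPM. Named were all 9 genes, the 3 genes of each list with the lowest adjusted p in each direction at 30 days, and the 3 genes most correlated with each of the 9. Genes called in counts of 5 or fewer were also named, a choice made after their values were seen. Alternatives were DESeq2 1.42.0, other normalizations, no filter, 1 fit of all groups, each library left out, a replicate block at 30 days and, chosen after seeing the data, a block on column numbers at 7 days and removal of ONH libraries above 1000 CPM of photoreceptor markers. Both regions came from the same mice, but no source used here ties the library numbers across regions, so the block is an alternative alone. Totals were 16292489 to 33307092 counts a library. Promoters are from RefSeq (GRCm38.p6), and gene positions from GENCODE M21 (GRCm38).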

Additional observations from a re-analysis of the deposited data

Results flagged for a closer look

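In each of 68 groups of values (36 of the 9 genes and 32 of marker sums) the highest or lowest library was compared with the rest, a comparison that chance alone exceeds in about 1 in 20 groups, and 8 groups held a library far from the others. Of the 9 genes, Pax2 was low in ONP library 4 at 30 days (0.323 CPM, others 0.828 to 1.18 CPM). Otx2 was high in ONH library 4 at 30 days (15.8 CPM, others 0.135 to 5.57 CPM).

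The same ONH library stood apart in photoreceptor markers (2796 CPM, others 173 to 542 CPM) and in pigment cell markers (2016 CPM, others 148 to 769 CPM). In the ONP at 30 days, library 5 stood apart in photoreceptor markers (78.5 CPM, others 33.3 to 49.5 CPM) and library 1 in pigment cell markers (28.8 CPM, others 12.8 to 19.0 CPM). ONH library 7 at 30 days was high in pituitary markers (226 CPM, others 3.77 to 34.3 CPM) and in microglia and macrophage markers (4197 CPM, others 250 to 1525 CPM).

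For 2 genes of the patterning lists the change from 7 to 30 days differed between the regions by the interaction test. Nr2e1, a nuclear receptor of neural progenitors and retinal astrocytes, differed by 1.97 on the log2 scale (adjusted p = 0.0407, edgeR), with means of 2.56 and 8.61 CPM at 7 and 30 days in the ONP and 7.62 and 6.52 CPM in the ONH. Pax8 differed by 6.20 (adjusted p = 0.0321, edgeR), with means of 0.164 and 7.55 CPM in the ONP and 5.37 and 2.99 CPM in the ONH. In the ONP at 7 days the mean was at the level of 3 counts, 0.112 to 0.191 CPM in those libraries. Few counts thus set the size of this estimate.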

How the results depend on the processing

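Of the 9 genes, 7 were called between the regions at 30 days, and 6 to 8 over 21 alternatives. At 7 days 4 were called, and 2 to 4 with 1 library left out; it was 2 without ONH library 1 or ONP library 1, 2 or 6, and the cause was not tested. It was 6 in a single fit of all 4 groups, 5 in DESeq2 and 3 without the photoreceptor-rich libraries. With time, 0 were called in the ONH under all 17 alternatives. In the ONP 2 were called, 1 to 2 with 1 library left out, 1 in a single fit of all 4 groups and 3 in DESeq2 or with library size only. The interaction called 0, but 1 in DESeq2 and 2 without the 3 ONH libraries rich in photoreceptor markers. Of 820 log2 fold changes under alternatives, 765 kept their side of the threshold, 45 lost and 10 gained a call, and none of those called turned direction. Counts of all genes called moved more: at 7 days 1940 became 3211 in DESeq2, 3785 in a single fit of all 4 groups and 1102 to 2379 with 1 library left out. In the ONH over time 0 became 446 in DESeq2, 292 in a single fit, 28 without the photoreceptor-rich libraries and up to 167 with 1 library left out. In the ONP over time 2638 became 1189 in a single fit and 1439 to 3214 with 1 left out. The interaction count of 91 became 409 in DESeq2, 50 without the filter, 441 without the photoreceptor-rich libraries and 22 to 318 with 1 left out.

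With the replicate block at 30 days, 7 genes were called, and it changed no call of the 9 genes (Vax2 log2FC 2.96, Pax2 1.76, Six3 1.13, Zic1 1.39, Lhx2 0.47), while the count over all genes went from 6322 to 6717. With the block the SE fell for Zic1 (0.28 to 0.17) and Lhx2 (0.17 to 0.11) and rose for Pax2 (0.30 to 0.32) and Lhx6 (0.68 to 0.76). The deviations of same-numbered libraries from their group means correlated at r = 0.0752 to 0.472, 5 of 7 over 0.1. For 4 of 7 numbers another number correlated better. The r was 0.179 against 0.0752 for number 1, 0.296 against 0.273 for 2, 0.242 against 0.204 for 4 and 0.0872 against 0.0841 for 6. These values do not settle whether same-numbered libraries share mice. At 7 days both regions share 3 column numbers (r = 0.0117 to 0.146), and in those 6 libraries 1 gene of the 9, Otx2, was called with the replicate block and 1 without it (879 and 913 of all genes). With that block Pax2 had a log2FC of 1.31 (adjusted p = 0.375, edgeR) and Zic1 of 1.07 (adjusted p = 0.240, edgeR). Vax1, Lhx6 and Otx2 had few counts in some groups.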

Other observations

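Summed markers of further cell types are given as values at 30 days, with the number of genes called. Of all genes tested, 41.8% were called and 21.8% were higher in the ONH. The sums were not tested. Mueller glia markers (10 genes, some shared with astrocytes) summed to 37342 to 67712 CPM in the ONH and 22130 to 44871 CPM in the ONP at 30 days, with 5 of 10 higher in the ONH. Retinal ganglion cell markers summed to 21.0 to 79.2 CPM and 12.4 to 22.5 CPM, with 3 of 6 tested higher and 1 lower. Bipolar and amacrine cell markers were at 43.6 to 84.3 CPM in the ONH and 116 to 248.7 CPM in the ONP, with 3 of 7 tested higher and 3 lower. Surface epithelium and lens markers were at 721 to 1426 CPM and 806 to 2340 CPM, and none of 6 tested passed. Pituitary markers were at 3.77 to 226 CPM and 2.02 to 5.73 CPM, with 2 of 3 tested higher in the ONH. Microglia and macrophage markers were at 250 to 4197 CPM and 315 to 5200 CPM, with 1 of 10 called, lower in the ONH.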
